A study of Mus musculus and Homo sapiens with 18 samples.

Results

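The EMX1-sg3 peaks were the 853 regions in the deposited list of an immunoprecipitate (IP) from 293FT cells, a human embryonic kidney line that carries the SV40 large T antigen. The cells had received 20 ug of the single guide RNA (sgRNA) EMX1-sg3. All peaks of the list were taken, out of 19007 in the 4 lists of 293FT cells and 53617 in the 16 lists of the series. The series mapped by ChIP-seq where catalytically inactive, HA-tagged Cas9 (dCas9) sits in the genome with different guides, in mouse embryonic stem cells and in 293FT cells. The other 293FT groups were an IP from cells given 20 ug of EMX1-sg1 (18042 peaks), an IP from cells given no sgRNA (63 peaks) and an input of cells given no sgRNA, made with no antibody (49 peaks). Both guide samples are titled transient. The amount of dCas9 given to the cells is not in the labels, and for the controls the labels give the treatment as none, so whether those cells held dCas9 is not stated. Each group was 1 library, so differences between groups carry no test. Intervals on shares are exact (Clopper-Pearson, 95%) and cover counting error only. Positions are in hg19. An hg19 genome or gene annotation was not used here, and no base or gene is given at a peak, except that the peak shared by both EMX1 guides on chromosome 2, where EMX1 is known to lie, was taken for the guides' target.

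Cas9 finds DNA through its guide RNA. The protein first meets a short protospacer-adjacent motif in the DNA, and then the guide bases nearest to that motif, called the seed, pair with the DNA strand. dCas9 keeps these steps but cannot cut, so ChIP-seq of its HA tag records binding, including binding at places that match the guide only in part. EMX1 is a homeobox gene on chromosome 2 that acts in the developing forebrain and is a common test locus for guides.

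The strongest EMX1-sg3 peaks were spread over many chromosomes. The 10 peaks with the highest authors' score, an unlabelled value per peak that is used here for rank within the list, lay on 8 chromosomes. The first was at chr3:43197021-43197845, with a score of 966.01 and a width of 825 bp. The second, at chr10:12237092-12238931, had a score of 689.99 and was the sixth widest of the list at 1840 bp. The third, at chr10:31288106-31288585, scored 573.93 and was only 480 bp wide, so a high score did not need a wide peak.

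The fourth was the peak taken for the EMX1 target, chr2:73160459-73161547, which scored 565.18 and was 1089 bp wide. It is the first row of the deposited list, ahead of chromosome 10, and its nearest EMX1-sg3 neighbour lay 752 kb away. The fifth peak lay on chromosome 8, with a score of 517.07 and a width of 1040 bp.

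The next 5 peaks scored 515.48, 513.43, 505.79, 488.92 and 450.94. In that order they lay at chr18:37213365-37213799, chr15:79651774-79652511, chr16:68023477-68024425, chr15:66506464-66507453 and chr5:154171835-154172791. Of the 10, 8 had an EMX1-sg1 peak within 100 kb, against 55.1% of the whole list (470 of 853). With 10 peaks this count is too small to set them apart. The exceptions were the chromosome 18 peak, 2059 kb from the nearest EMX1-sg1 peak, and the first chromosome 15 peak, 180 kb from it. Another EMX1-sg3 peak lay within 100 kb of 4 of the 10, against 8.09% of the whole list (69 of 853). Among the 213 peaks with the highest scores the share was 10.3% (22 of 213, 6.59 to 15.2%), an interval that holds the share of the whole list. The widths of the 10 ran from 435 to 1840 bp with a median of 953 bp, against 651 bp in the whole list.

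EMX1-sg3 peaks were narrow. Their median width was 651 bp, with quartiles of 521 and 805 bp and a range of 332 to 2685 bp. The EMX1-sg1 list had a median of 1032 bp, with quartiles of 726 and 1655 bp and a range of 282 to 9907 bp. The no-sgRNA IP and the input had medians of 599 and 579 bp. By its middle value the EMX1-sg3 list thus lay nearer to the controls than to the other guide.

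Wide peaks were rarer in the EMX1-sg3 list. Of EMX1-sg3 peaks 8.32% were wider than 1 kb (71 of 853, 6.56 to 10.4%), against 52.2% of EMX1-sg1 peaks (9419 of 18042, 51.5 to 52.9%). None of the 63 no-sgRNA IP peaks was, which allows a share of up to 4.76%, and 10.2% of the input peaks were (5 of 49, 3.4 to 22.2%). Above 2 kb there were 5 EMX1-sg3 peaks, 3036 EMX1-sg1 peaks and 1 input peak. At the other end, 22.3% of EMX1-sg3 peaks were under 500 bp (19.5 to 25.2%), against 6.69% of EMX1-sg1 peaks (6.33 to 7.06%). Width can depend on read depth, which is unknown, since the lists hold no read counts.

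**Figure D1:**
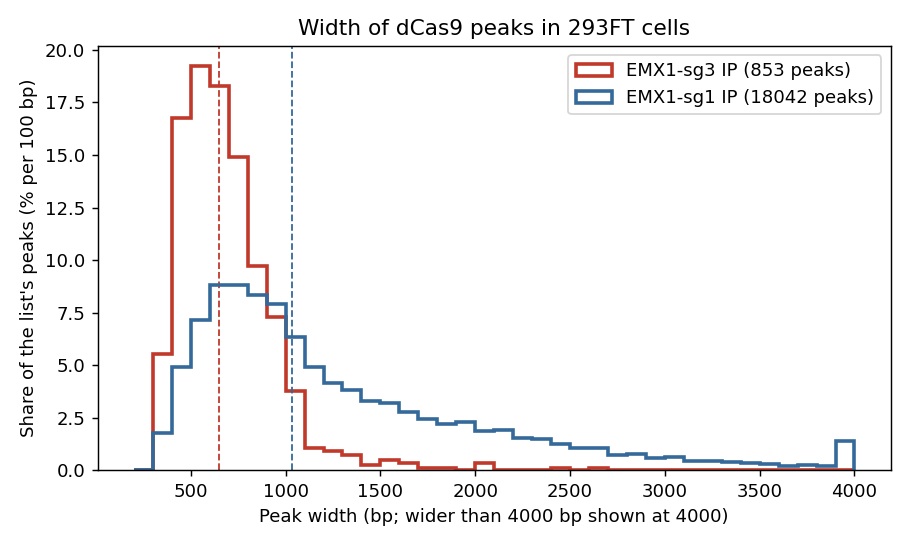
Share of peaks by width in bp, in steps of 100 bp, for the EMX1-sg3 IP and the EMX1-sg1 IP; dashed lines are the medians, 651 and 1032 bp. The EMX1-sg3 peaks stay mostly below 1 kb, while the EMX1-sg1 peaks have a long tail of wide peaks.

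The 5 widest EMX1-sg3 peaks were not the strongest. The widest, chr1:224199992-224202676, was 2685 bp long and scored 119.58, which ranked 223 of 853. The next, chr16:89626254-89628688, was 2435 bp long and ranked 200. The others were chr7:27195175-27197213 (2039 bp, rank 25), chrX:80376099-80378126 (2028 bp, rank 101) and chr5:102455253-102457276 (2024 bp, rank 17). The 3 narrowest peaks were 332 bp at chr1:198885096-198885427, and 334 bp each on chromosome 8 and at chr13:45138519-45138852. They scored 66.82, 97.02 and 107.05 in that order.

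Width and score moved together only loosely within the list. When the peaks were ordered by score into 4 groups of equal size, from low to high, the median widths were 576, 625, 668 and 764 bp. The shares wider than 1 kb were 2.34%, 4.69%, 6.1% and 20.2%. The rank correlation of width and score across the 853 peaks was 0.30 (Spearman), and 0.39 in the EMX1-sg1 list. These peaks share a library and a peak caller, so the value describes the list only.

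Neighbouring EMX1-sg3 peaks were far apart. The median gap from the end of a peak to the start of the next on its chromosome was 1864 kb and the mean 3333 kb, over 829 gaps. In the EMX1-sg1 list the median was 29.6 kb and the mean 161 kb. The ratio of median to mean falls when peaks bunch together. It was 0.56 for EMX1-sg3 and 0.18 for EMX1-sg1. Leaving peaks out of a bunched list can raise this ratio, and the 2 lists differ much in size. The ratio thus does not settle which guide's peaks were the more evenly spread. The no-sgRNA IP had 0.80 and the input 0.25.

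Few EMX1-sg3 peaks had a close neighbour of their own list. Only 8 of 853 had another within 10 kb (0.94%, 0.41 to 1.84%), against 43.1% in the EMX1-sg1 list. Within 100 kb it was 69 of 853 (8.09%, 6.35 to 10.1%), against 84.9% in the EMX1-sg1 list. Within 1 Mb it was 440 of 853 (51.6%, 48.2 to 55%), against 99.2%. A longer list brings its peaks closer together, so these shares are no measure of clustering between the guides.

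The close pairs were pairs and little more. Runs of peaks each within 100 kb of the next numbered 34 on 16 chromosomes, of which 33 held 2 peaks and 1 held 3. The one with 3 spanned 52.7 kb at chr7:102464029-102516741, with scores of 61.72 to 147.19. In 29 of the 34 runs there was no EMX1-sg1 peak, but the runs were only 1.37 to 96.9 kb long. The median distance to the nearest EMX1-sg1 peak was 78.8 kb for peaks in runs and 84.3 kb for the others. The count thus does not set the runs apart. Peaks in such runs had a median width of 652 bp and a median score of 84.75, and the 784 outside them had 650.5 bp and 82.95. Paired and lone peaks were thus alike in width and score by their medians.

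The closest pair, at chr9:127422568-127423271 and chr9:127423274-127423932, was separated by 2 bp and carried consecutive numbers in the peak names, with nearly equal scores of 78.05 and 77.34. The next pair, chr7:102464029-102464717 and chr7:102465602-102466211, was 884 bp apart and scored 61.72 and 147.19. Pairs on chromosomes 10 and 12 lay 2.71 kb and 5.51 kb apart, at chr10:18850616-18855834 and chr12:81310134-81317346. The chromosome 10 pair scored 295.96 and 263.94 and was the only one of these with both scores in the highest of the 4 score groups. The fifth pair, on chromosome 19, lay 10.3 kb apart at chr19:36406870-36418005.

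Longer runs were also seen, with steps of up to 1 Mb. The fullest held 6 peaks, at chr5:148465370-150059158 and at chr6:5116392-7997436. A run of 5 peaks within 1.23 Mb began at the third widest peak, chr7:27195175-28422214. In the EMX1-sg1 list the longest such run held 944 peaks.

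The list placed EMX1-sg3 peaks on chromosomes 1 to 22 and X, in numbers that followed chromosome size. Chromosome 1 had the most (84), then chromosomes 6 (69), 2 (65), 4 (56) and 5 (51). The fewest among these were on 21 (12), 18 (13) and 20 (14). In each EMX1 list 1 peak was placed on Y, and whether it marks binding there was not tested. Across the 23 chromosomes without Y, the number of EMX1-sg3 peaks and the span covered by the 4 lists had a Pearson r of 0.90, against 0.22 for the EMX1-sg1 list. These are descriptions over chromosomes, which differ in gene content and copy number as well as in length.

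Density per Mb of that span varied little between chromosomes for EMX1-sg3. It ran from 0.168 peaks per Mb on chromosome 18 to 0.473 on chromosome 22, a 2.81-fold range, around a median of 0.285. For EMX1-sg1 it ran from 2.24 peaks per Mb on X to 28.8 on chromosome 19, a 12.9-fold range, around a median of 5.9. Chromosome 6 was among the densest for EMX1-sg3 (0.404), after 22 and 17 (0.432).

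The guides differed in their share on gene-dense chromosomes. Chromosomes 16, 17, 19, 20 and 22, textbook examples of gene-rich autosomes, held 12.9% of EMX1-sg3 peaks (110 of 853, 10.7 to 15.3%), against 31.5% of EMX1-sg1 peaks (5685 of 18042, 30.8 to 32.2%). The no-sgRNA IP had 7.94% there (5 of 63, 2.63 to 17.6%) and the input 2.04% (1 of 49, 0.052 to 10.9%). The gene-poor chromosomes 4, 13, 18 and X held 14.2% of EMX1-sg3 peaks (121 of 853, 11.9 to 16.7%), against 7.36% of EMX1-sg1 peaks (6.98 to 7.75%). The no-sgRNA IP had 9.52% there (6 of 63, 3.58 to 19.6%) and the input 61.2%, 30 of its 49 peaks. Shares depend on chromosome size. Per Mb of span, chromosomes 4, 13, 18 and X had 0.293, 0.243, 0.168 and 0.191 EMX1-sg3 peaks. Chromosomes 16, 17, 19, 20 and 22 had 0.322, 0.432, 0.272, 0.224 and 0.473, and the median over chromosomes was 0.285. The EMX1-sg3 list was thus not denser on the gene-poor set.

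Among single chromosomes the shares differed most on 19, with 16 EMX1-sg3 peaks (1.88%, 1.08 to 3.03%) and 1694 EMX1-sg1 peaks (9.39%, 8.97 to 9.82%). On 10 of the 23 chromosomes the intervals of the 2 shares did not overlap. The EMX1-sg3 share was the lower on 17, 19, 20 and 22 and the higher on 2, 4, 5, 6, 13 and X. Within the EMX1-sg3 list the gene-dense share changed little with score: from the lowest to the highest of the 4 score groups it was 11.7%, 10.3%, 15% and 14.6%, with intervals that overlap.

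**Figure D2:**
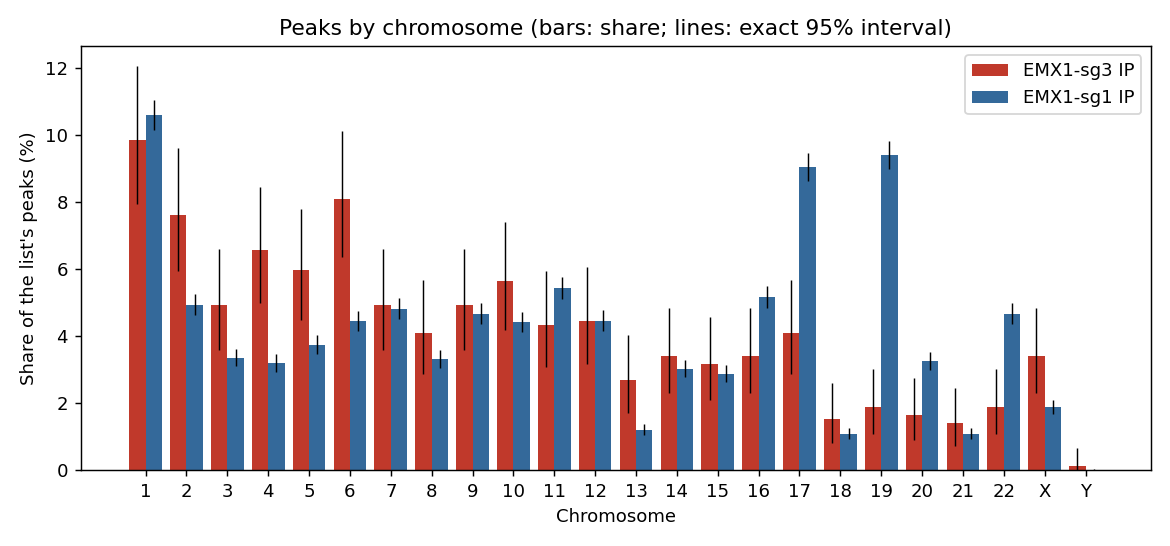
Share of each list's peaks on each chromosome, in percent, for the EMX1-sg3 IP (left bars) and the EMX1-sg1 IP (right bars), with exact 95% intervals. The EMX1-sg3 bars follow chromosome size, while the EMX1-sg1 bars stand out on chromosomes 17, 19 and 22.

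The numbers in the peak names give a view of the calls before the lists were filtered, by a rule that no source here states. From chromosomes 20 to 22 and 3 to Y in name order the numbers rise without a break in both lists, so the numbers skipped were taken as calls that are no longer listed. Over this part 409 EMX1-sg3 peaks remained of 7920 numbers, or 5.16% (4.69 to 5.67%), against 6928 of 9506, or 72.9% (72 to 73.8%), for EMX1-sg1. By chromosome the kept share was 2.71 to 11% for EMX1-sg3 and 67.5 to 80% for EMX1-sg1.

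For EMX1-sg3 the kept share was lowest on the gene-dense chromosomes of that part. Numbers between the first and last listed peak of chromosomes 20 and 22 were 15.4% of those of the 11 chromosomes without Y (1108 of 7183), but peaks kept there were 7.35% (30 of 408, 5.02 to 10.3%). For EMX1-sg1 these shares were 19.7% (1866 of 9496) and 20.6% (1430 of 6927). The 2 guides were thus closer in the numbering than in the listed peaks on these 2 chromosomes. In the rest of the lists, which holds chromosomes 16, 17 and 19, the numbers restart or jump, and the same count was not made.

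Along the chromosomes EMX1-sg3 peaks reached most of the large regions that held EMX1-sg1 peaks. Of 308 windows of 10 Mb that held the centre of any peak of the 4 lists, 264 held an EMX1-sg3 peak (85.7%) and all 308 an EMX1-sg1 peak. A window held a mean of 2.77 and a median of 2 EMX1-sg3 peaks, and at most 9. The EMX1-sg1 list had a mean of 58.6, a median of 28 and a highest count of 574. The 31 windows with most peaks held 25% of the EMX1-sg3 peaks, against 44.2% of the EMX1-sg1 peaks in that guide's own 31 fullest windows.

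The 5 fullest EMX1-sg3 windows ranked 52 to 112 of 308 by their EMX1-sg1 count. Over all 308 windows the counts of the 2 guides had a rank correlation of 0.39 (Spearman). With 9 peaks each, the windows at 20 to 30 Mb of chromosome 7 and 10 to 20 Mb of chromosome 10 led the list, and for EMX1-sg1 they ranked 112 and 97 of 308, with 44 and 49 peaks. With 8 peaks each followed 40 to 50 Mb of chromosome 3, 50 to 60 Mb of chromosome 16 and 60 to 70 Mb of chromosome 17, which held 70, 70 and 89 EMX1-sg1 peaks. A further 15 windows had 7 EMX1-sg3 peaks, and their EMX1-sg1 counts ran from 14 to 461 with a median of 48, or ranks of 240 to 2. Windows with many EMX1-sg3 peaks also tended to hold more of the other guide's: the 68 windows with 5 or more EMX1-sg3 peaks had a median of 49 EMX1-sg1 peaks, against 15 in the 44 windows with none. Windows were counted from base 1, so the last on a chromosome can be shorter than 10 Mb. A short window lowers both counts together. The correlation, this contrast and the share of windows with an EMX1-sg3 peak were not corrected for it. The control library used for peak calling is not given and may be shared by both lists.

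**Figure D3:**
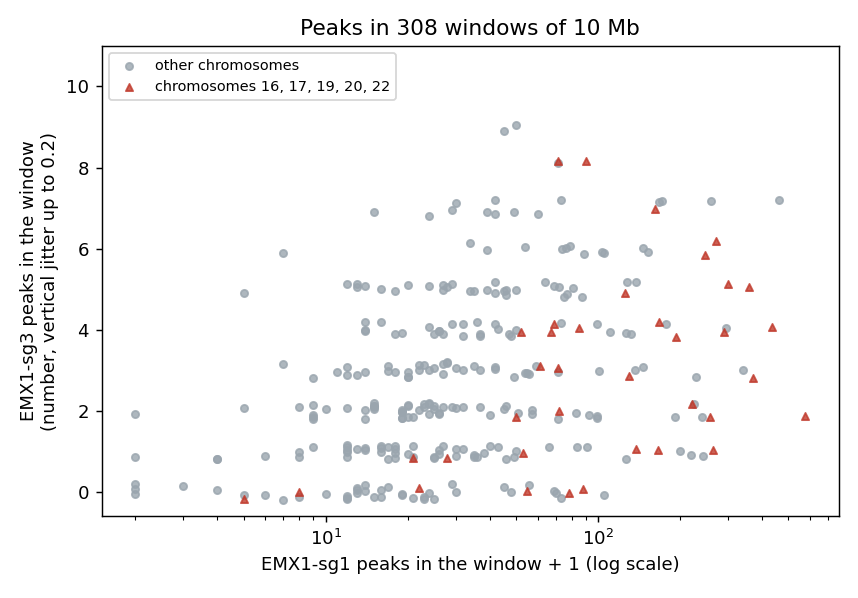
Number of EMX1-sg3 peaks against EMX1-sg1 peaks plus 1 (log scale) in 308 windows of 10 Mb; triangles are windows of chromosomes 16, 17, 19, 20 and 22. The EMX1-sg1 count spans 1 to 574 while the EMX1-sg3 count stays between 0 and 9, and the gene-dense windows lie to the right more than upward.

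EMX1-sg3 peaks did not gather at chromosome ends. The outer 10% of each chromosome's covered span, at both ends, held 21.2% of EMX1-sg3 peaks (181 of 853, 18.5 to 24.1%), against 39.9% of EMX1-sg1 peaks (39.2 to 40.6%). The no-sgRNA IP had 20.6% there (11.5 to 32.7%) and the input 8.16% (4 of 49, 2.27 to 19.6%). Within 5 Mb of an end lay 7.5% of EMX1-sg3 peaks (5.83 to 9.48%), against 26.3% of EMX1-sg1 peaks. When the span was divided into 10 equal parts, the EMX1-sg3 share was lowest in the fourth, at 6.21%, and highest in the second, at 12.4%.

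The 4 longest stretches without an EMX1-sg3 peak all held EMX1-sg1 peaks. The longest was 36 Mb at chr9:38681246-74639833, with 8 EMX1-sg1 peaks inside, and the next 31.1 Mb at chr1:114137091-145219074, with 20. Both of these span their chromosome's centromere and the large heterochromatin block beside it. The third, chr3:153420676-180871623, held 25 EMX1-sg1 peaks in 27.5 Mb. The fourth, chr2:213549996-239532236, held 161 in 26 Mb.

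Although the EMX1-sg1 list is long, EMX1-sg3 peaks rarely met it. The median edge-to-edge distance from an EMX1-sg3 peak to the nearest EMX1-sg1 peak was 82.7 kb, with quartiles of 25.9 and 245 kb and a maximum of 4.05 Mb. Within 100 kb of an EMX1-sg1 peak lay 55.1% of EMX1-sg3 peaks (470 of 853, 51.7 to 58.5%), and within 1 Mb 95.5% (815 of 853). The no-sgRNA IP peaks lay at a like distance from EMX1-sg1 peaks, with a median of 75.2 kb and 58.7% within 100 kb (37 of 63, 45.6 to 71%). The input peaks had a median of 357 kb and 20.4% within 100 kb (10 of 49, 10.2 to 34.3%).

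This distance followed the chromosome. On chromosomes 16, 17, 19, 20 and 22 the median distance was 25.8 kb over 110 EMX1-sg3 peaks, and on 4, 13, 18 and X it was 160 kb over 121. By single chromosome, Y aside, it ran from 12.3 kb on chromosome 19 to 275 kb on chromosome 13. These 2 chromosomes had 28.8 and 2.29 EMX1-sg1 peaks per Mb of span, and a denser list lies nearer to any set of positions. The contrast is thus no trait of the EMX1-sg3 peaks alone. From the lowest to the highest of the 4 score groups the median distance was 98.7, 90.1, 76.5 and 72.7 kb. The shares within 100 kb of an EMX1-sg1 peak were 50.5%, 52.1%, 60.1% and 57.7%, with intervals that overlap.

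Only 2 EMX1-sg3 peaks shared at least 1 bp with an EMX1-sg1 peak. The first was the presumed EMX1 target, where the EMX1-sg3 peak contained all 989 bp of the EMX1-sg1 peak chr2:73160521-73161509. The second, chr10:60028261-60029867, was 1607 bp wide, scored 170.71 (rank 130) and shared 1031 bp with the 3091 bp EMX1-sg1 peak at chr10:60026201-60029291. Both shared positions were wider than the list's median.

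Just beyond contact the numbers were higher. A further 12 EMX1-sg3 peaks ended within 1 kb of an EMX1-sg1 peak without sharing a base, and the 9 following steps of 1 kb, out to 10 kb, held 4 to 15 peaks each. The 10 steps averaged 8.9 peaks. The mean widths of EMX1-sg3 and EMX1-sg1 peaks add up to 1993 bp, so sharing a base takes in about as much sequence as a 1 kb step on both sides of a peak. The closest without contact were chr19:49866135-49867666 at 4 bp (score 288.92), chr17:34060170-34060948 at 10 bp (score 78.13) and chr4:1524731-1525496 at 132 bp (score 289.69). Whether the filter bears on peaks that the lists have in common was not tested.

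**Figure D4:**
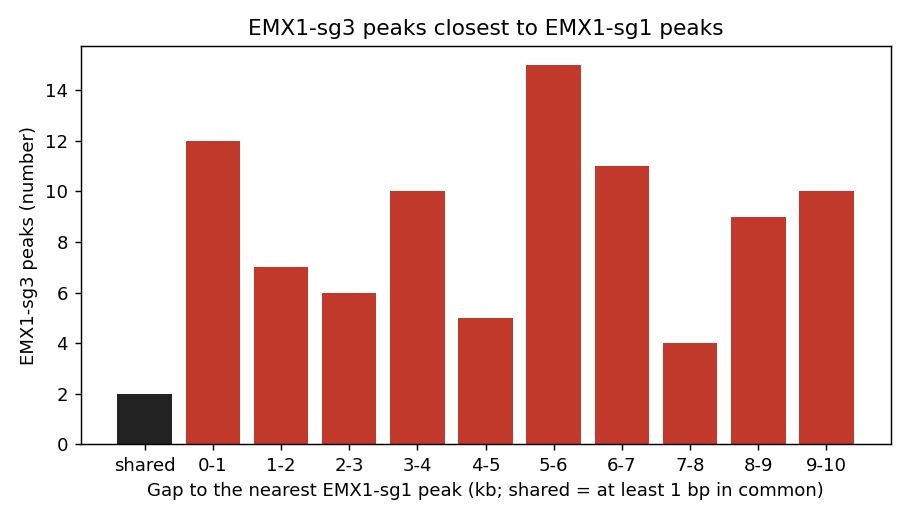
Number of EMX1-sg3 peaks by gap to the nearest EMX1-sg1 peak: peaks that share at least 1 bp (first bar) and 10 steps of 1 kb. The first bar holds 2 peaks, and the steps hold 4 to 15 each.

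No EMX1-sg3 peak shared a base with a peak of the no-sgRNA IP or of the input. A count of 0 of 853 allows a share of up to 0.352% in each case. None of the 18042 EMX1-sg1 peaks shared a base with either control, and the 2 controls shared none with each other. The count thus does not set EMX1-sg3 apart. The no-sgRNA IP and input peaks add up to only 38.5 and 34.1 kb, and whether the filter removed shared peaks was not tested. Of EMX1-sg3 peaks, 5.04% lay within 1 Mb of a no-sgRNA IP peak (43 of 853, 3.67 to 6.73%), against 4.13% of EMX1-sg1 peaks (745 of 18042, 3.84 to 4.43%). The median distance was 12.9 Mb for EMX1-sg3 peaks (quartiles 5.33 and 30.3 Mb) and 13.5 Mb for EMX1-sg1 peaks (5.79 and 28.4 Mb). These medians leave out 85 EMX1-sg3 and 1969 EMX1-sg1 peaks on chromosomes where the no-sgRNA IP had none. The intervals of the 2 shares overlapped.

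The 3 EMX1-sg3 peaks nearest to the no-sgRNA IP list were chr1:79901412-79902119 at 60.6 kb, chr11:75663652-75664379 at 66.5 kb and chr14:23046296-23046849 at 70.5 kb. Their scores were 61.72, 120.42 and 60.01. The presumed EMX1 target lay 607 kb from the nearest no-sgRNA IP peak. The distance to the input list was longer, with a median of 30.3 Mb over the 697 EMX1-sg3 peaks on chromosomes that had an input peak. Of all 853, 18 were within 1 Mb (2.11%, 1.26 to 3.31%), against 160 of 18042 EMX1-sg1 peaks (0.887%, 0.755 to 1.03%). The gene-poor chromosomes named above held 61.2% of the input peaks (30 of 49), 14.2% of EMX1-sg3 peaks and 7.36% of EMX1-sg1 peaks. The contrast within 1 Mb was not corrected for chromosome, and whether it goes beyond these shares was not tested. The EMX1-sg3 peak nearest to an input peak was chr4:162550832-162551694, at 17.1 kb.

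**Figure D5:**
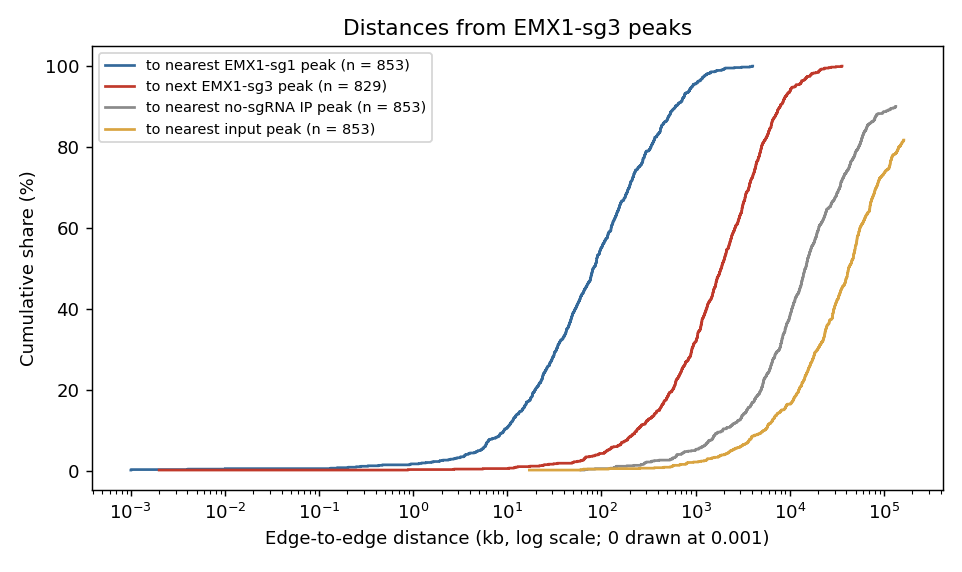
Cumulative share of EMX1-sg3 peaks (percent) by edge-to-edge distance (kb, log scale) to the nearest EMX1-sg1, no-sgRNA IP and input peak, and of the 829 gaps between neighbouring EMX1-sg3 peaks. The medians lie at 82.7 kb for EMX1-sg1 and at 1864 kb for the gaps; the control curves stop below 100% because some chromosomes had no control peak.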

How the data were processed

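Peak lists of 4 samples of 293FT cells were used, 1 library each. Bowtie (version not given) mapped the reads, and mm9 and hg19 are the builds, of which hg19 is the human one, per the submitters' processing notes. MACS, a peak caller, stands in the deposited peak names; no source used here states its version, control or threshold, or the filter applied after it. Each deposited row has a position and an authors' score from 50.01 up, with no column name or stated scale. Scores were used only within a list, except for the alternative that applied a score of at least 100 to every list. Whether the scale is the same in all lists is not stated. Starts in the files were read as 0-based and are printed 1-based. Depth is unknown, as the lists hold no read counts.

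From the lists were computed (Python 3.11.15, pandas 2.3.3, numpy 2.4.6, scipy 1.17.1) widths, gaps, windows of 10 Mb by peak centre, edge-to-edge distances, and exact 95% intervals on shares. The limit that a count of 0 allows is 3 divided by the number of peaks. The distance code was tested on simulated data. Peaks were named by rule: the 10 highest scores, the 5 widest, the 3 narrowest, those shared with another 293FT list, the 3 nearest to the no-sgRNA IP, the 5 closest pairs, and the fullest runs and windows. The longest empty stretches, the peaks next to contact and those nearest to the input were named after their values were seen, and the steps of 1 kb, the chromosome ends and the split of the numbering were chosen then. Members, chromosome sets and rules were chosen with earlier results of these data known. Alternatives were a score of at least 100, merging within 500 bp, distances between centres, windows shifted by 5 Mb, other cluster distances and, added after the data were seen, leaving out the first row of both EMX1 lists.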

Additional observations from a re-analysis of the deposited data

How the results depend on the processing

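Of 37 values recomputed under an alternative, 28 stayed within their counting interval or, for counts, within 1.5 times, and 9 moved. With a score of at least 100 in every list, 308 EMX1-sg3 peaks were left, with a median width of 738.5 bp. Their median spacing was 4955 kb, and 2.6% had another within 100 kb. The 10 Mb windows with an EMX1-sg3 peak fell from 264 to 179, a change just inside the limit of 1.5 times. The distance to the nearest EMX1-sg1 peak was then 192 kb by the median, 37.7% lay within 100 kb, and there were 55 numbers in the peak names for each peak kept, against 19.4 in the full list; fewer peaks in both lists lengthen such distances by construction. The no-sgRNA IP had no peak of that score, so distances to it could not be given. The EMX1-sg3 and EMX1-sg1 lists then had 14.3% and 31% on the 5 gene-dense chromosomes, and median widths of 738.5 and 1436 bp. Clustering depends on the distance chosen: 0.938% had a neighbour within 10 kb and 51.6% within 1 Mb. Merging, centres, shifted windows and leaving out the first row of both EMX1 lists moved none of the values they were run on. No paired analysis was possible because each group held 1 library. Unknown depth and an unstated filter limit every comparison of list sizes, widths and spacing.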
